A study of Mus musculus with 6 samples.

Results

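Keratin genes were followed in RNA sequencing of 6 cell lines that had been grown out of mouse liver tumors. The 9 genes described are the rows of the deposited expression table with the symbols *Krt5*, *Krt7*, *Krt8*, *Krt14*, *Krt18*, *Krt19*, *Krt20*, *Krt23* and *Krt80*, which are 9 of the 29 keratin genes and of the 20856 genes with values in that table. The tumors had been started in young adult female C57BL/6 mice by injecting the tail vein with plasmids that reach hepatocytes: in all 6 a *Myc* transposon, its transposase and the plasmid pX330, which carries the nuclease Cas9 and a guide RNA. The guide targeted *Trp53*, the gene of the tumor suppressor p53, in 3 lines (*Myc*; sg*Trp53*) and *Kmt2c*, the gene of the histone methyltransferase MLL3, in the other 3 (*Myc*; sg*Kmt2c*). Only the transposon was meant to integrate, and Cas9 and the guide were expressed transiently. No line started without either guide was compared, and no untreated liver was among the samples. The lines were untreated, were grown on collagen and had been passaged until no fibroblasts were seen. The study describes the lines of a genotype as coming from different mice, although the names of *Myc*; sg*Kmt2c* replicates 2 and 3 share a number. Whether a line is a single clone is not given in the sources used here.

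Keratins are the intermediate filament proteins of epithelial cells. They form filaments only as pairs of a type I and a type II chain, and an unpaired chain is degraded, so the balance between the types matters to a cell. In the liver, hepatocytes make the pair of *Krt8* (type II) and *Krt18* (type I), and the cells of bile ducts add *Krt7* (type II) and *Krt19* (type I), which pathologists use to tell ducts from hepatocytes. *Krt20* (type I) belongs to differentiated gut epithelium, *Krt23* (type I) can be induced in injured liver, *Krt80* (type II) is a broadly made epithelial keratin, and *Krt5* (type II) and *Krt14* (type I) form the filaments of the basal layer of skin and other stratified epithelia. The members fell into 5 type I and 4 type II genes, which in GRCm38 lie in the keratin clusters of chromosomes 11 and 15.

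The level of each gene is given in RPKM, the reads on the gene divided by the transcript length listed for it and by the reads on all genes of the library. The libraries held 5312182 to 6878625 reads on genes in the *Myc*; sg*Trp53* lines and 3680068 to 4704539 in the *Myc*; sg*Kmt2c* lines. The targeted genes were looked at first. *Trp53* had 17.2, 17.6 and 19.4 RPKM in *Myc*; sg*Trp53* replicates 1 to 3 and 92.2, 124 and 121 RPKM in the *Myc*; sg*Kmt2c* lines, a log2 fold change of 2.56 (SE 0.19, adjusted p = 0.0140, limma). Its adjusted p lay between 0.0766 and 0.108 (limma) when any line but *Myc*; sg*Kmt2c* replicate 1 was left out. *Kmt2c* mRNA had 24.2, 18.4 and 19.2 RPKM in the *Myc*; sg*Trp53* lines, against 19.7, 25.0 and 9.51 RPKM in the *Myc*; sg*Kmt2c* lines, so its groups overlapped. *Myc*; sg*Kmt2c* replicate 1 stood apart from the other lines in many epithelial genes, and the fitted differences and the spread of the members are also given without it.

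*Krt18* and *Krt8*, the pair of hepatocytes and other simple epithelia, were the most abundant members by mean RPKM over the 6 lines (483 and 472 RPKM), followed by *Krt19* (419 RPKM), *Krt7* (186 RPKM), *Krt20* (12.5 RPKM), *Krt80* (10.1 RPKM), *Krt14* (1.86 RPKM), *Krt23* (1.17 RPKM) and *Krt5* (0.505 RPKM). For each of the 6 members that could be tested, the residual SD between lines of a genotype was larger than the fitted difference between the genotypes. None of the 6 passed the test between genotypes, and the values of the genotypes overlapped in all 9. Only 2 steps in this order exceeded 1 SD of the difference between the lines, on the scale of log2(RPKM + 1). These were the step from *Krt19* to *Krt7* (a mean difference of 2.76 ± 1.58, SD, n = 6 lines) and that from *Krt80* to *Krt14* (2.24 ± 1.71, SD, n = 6). *Krt18* and *Krt8* differed by -0.22 ± 0.58 (SD, n = 6), with *Krt18* higher in 2 lines and lower in 4, and *Krt8* exceeded *Krt19* by 0.71 ± 1.99 (SD, n = 6). *Krt20* exceeded *Krt80* in mean RPKM but lay below it in 5 of the 6 lines. *Krt7* has a listed transcript of 690 bases, shorter than the 1122 to 2190 bases of the other members, and a longer length would lower its RPKM by the same factor in every line.

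**Figure D1:**
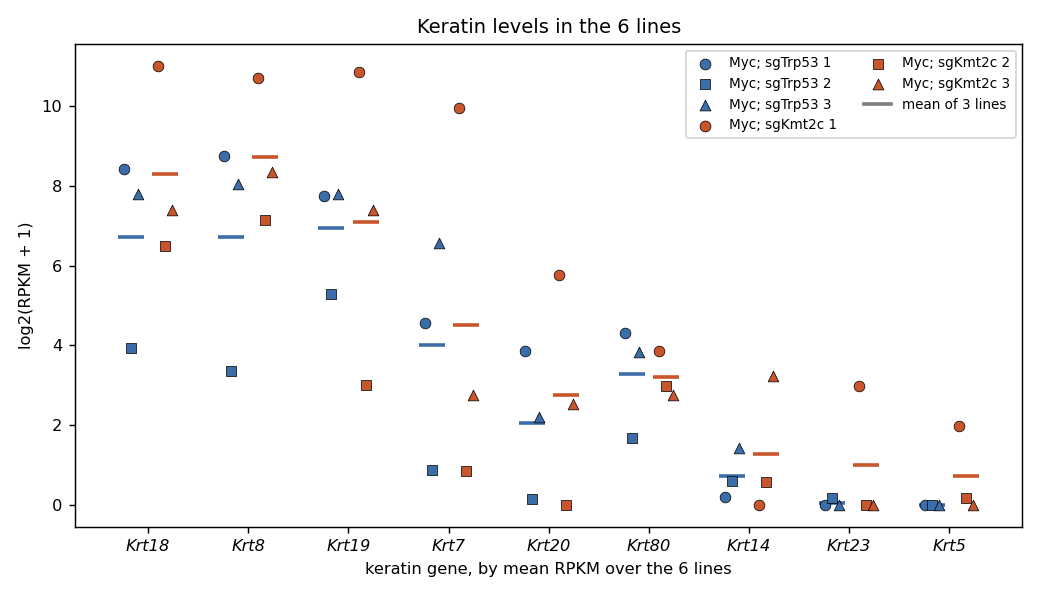
Level of the 9 keratin genes as log2(RPKM + 1), ordered by mean RPKM, in 3 *Myc*; sg*Trp53* lines (blue) and 3 *Myc*; sg*Kmt2c* lines (orange), with the marker shape giving the replicate and each bar the mean of 3 lines. *Myc*; sg*Kmt2c* replicate 1 is the highest of the 6 lines for 7 of the 9 genes, and the points of the genotypes overlap for every gene.

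*Krt8* lies on chromosome 15 (101996711 to 102004342, GRCm38) and *Krt18* follows it on the same chromosome (102028216 to 102032026), with 23874 bases between the genes, no other gene listed between them, and transcription running away from the gap on both sides. The stretch of DNA around the start sites is shown for 4 tested members, chosen because they shared *Myc*; sg*Kmt2c* replicate 1 as their highest line and had RefSeq windows at hand. Each window runs from 250 bases before the start site to 50 bases after it and was taken from RefSeq (GRCm38.p6). The windows were *Krt8* at chr15:102004293-102004592 on the minus strand, *Krt18* at chr15:102027966-102028265 on the plus strand, *Krt7* at chr15:101412153-101412452 on the plus strand, and *Krt20* at chr11:99438104-99438403 on the minus strand. The *Krt7* window lies inside the gene as the deposited table bounds it (101411043 to 101430313). Capitals mark matches, on either strand, to 5 motifs. The TATA box was searched as TATAAA and the GC box, which SP1 binds, as GGGCGG. The motif of AP-1 was searched as TGANTCA. That of TEAD factors was searched as GGAATG. That of KLF factors was searched as CCNCNCCC, which can overlap a GC box.
Krt8: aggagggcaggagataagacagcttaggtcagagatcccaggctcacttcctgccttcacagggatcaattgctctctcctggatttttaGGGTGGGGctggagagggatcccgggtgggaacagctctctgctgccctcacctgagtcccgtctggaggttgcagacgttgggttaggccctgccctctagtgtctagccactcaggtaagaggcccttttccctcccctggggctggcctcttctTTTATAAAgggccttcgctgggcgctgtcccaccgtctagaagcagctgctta
Krt18: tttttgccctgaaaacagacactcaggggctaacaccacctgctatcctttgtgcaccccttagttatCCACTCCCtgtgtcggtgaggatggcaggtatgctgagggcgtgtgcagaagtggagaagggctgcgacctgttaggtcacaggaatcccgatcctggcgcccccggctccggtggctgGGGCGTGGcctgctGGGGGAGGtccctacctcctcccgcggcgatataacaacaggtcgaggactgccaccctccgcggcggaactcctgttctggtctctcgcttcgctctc
Krt7: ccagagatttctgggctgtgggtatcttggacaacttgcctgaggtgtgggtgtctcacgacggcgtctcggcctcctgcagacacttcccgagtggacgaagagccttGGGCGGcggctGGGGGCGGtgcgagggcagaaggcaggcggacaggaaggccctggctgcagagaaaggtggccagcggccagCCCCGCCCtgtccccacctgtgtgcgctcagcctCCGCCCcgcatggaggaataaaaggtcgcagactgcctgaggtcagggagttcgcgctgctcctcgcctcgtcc
Krt20: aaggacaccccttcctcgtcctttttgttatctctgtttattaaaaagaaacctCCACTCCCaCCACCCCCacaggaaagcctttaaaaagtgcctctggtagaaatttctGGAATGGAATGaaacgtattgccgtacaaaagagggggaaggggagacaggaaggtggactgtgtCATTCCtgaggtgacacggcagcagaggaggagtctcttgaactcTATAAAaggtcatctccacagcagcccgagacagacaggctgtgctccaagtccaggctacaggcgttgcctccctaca

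The 4 windows held different letters. *Krt8* had a TATAAA in each orientation, overlapping each other at the annotated start site, and 1 KLF motif. *Krt18* had 3 KLF motifs and no other match, *Krt7* had 4 GC boxes of which 2 overlap a KLF motif, and *Krt20* had 1 TATAAA, 3 GGAATG and 2 KLF motifs. Among all 32851 RefSeq windows of this length, 13.6% held TATAAA, 35.7% GGGCGG, 7.81% TGANTCA, 14.7% GGAATG and 49.5% CCNCNCCC. Windows were at hand for 7 members. That of *Krt14* starts inside the gene and held 1 GGAATG, and those of *Krt5* and *Krt23* held none of the 5 motifs. A match is a description of the letters and not a binding site.

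*Krt8* had 431, 9.27 and 265 RPKM in *Myc*; sg*Trp53* replicates 1 to 3 and 1662, 140 and 327 RPKM in *Myc*; sg*Kmt2c* replicates 1 to 3. *Myc*; sg*Trp53* replicate 2 was lowest and *Myc*; sg*Kmt2c* replicate 1 highest, and the other 4 lines of both genotypes were interleaved. The means were 235 ± 212 and 710 ± 830 RPKM (SD, n = 3 lines each). The fitted difference, *Myc*; sg*Kmt2c* minus *Myc*; sg*Trp53* on the scale of log2(RPKM + 1), was 2.01 (SE 1.55, 95% interval -1.69 to 5.72, adjusted p = 0.720, limma; exact permutation test of the mean, two-sided p = 0.50). In bulk RNA a smaller number of keratin-making cells and less RNA per cell cannot be told apart.

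*Krt18* showed the same order at its extremes. It had 342, 14.2 and 223 RPKM in the *Myc*; sg*Trp53* lines, against 2065, 89.3 and 167 RPKM in the *Myc*; sg*Kmt2c* lines, so *Myc*; sg*Trp53* replicates 1 and 3 exceeded *Myc*; sg*Kmt2c* replicates 2 and 3. The fitted difference was 1.58 (SE 1.54, 95% interval -2.09 to 5.25, adjusted p = 0.765, limma). In *Myc*; sg*Kmt2c* replicate 1 *Krt18* ranked 17th by RPKM among all genes of the library, whereas in *Myc*; sg*Trp53* replicate 2 it ranked 5701st. For both genes the size of the difference depended on single lines. Without *Myc*; sg*Trp53* replicate 2 it was 0.33 for *Krt8* and 0.19 for *Krt18*, and without *Myc*; sg*Kmt2c* replicate 1 it was 1.03 and 0.22, on the same log2 scale.

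*Krt19*, a marker of bile duct and progenitor cells, had 214, 37.9 and 223 RPKM in the *Myc*; sg*Trp53* lines, against 1866, 7.06 and 166 RPKM in the *Myc*; sg*Kmt2c* lines. The highest and the lowest of the 6 lines were both *Myc*; sg*Kmt2c* lines, 264-fold apart in RPKM, while the *Myc*; sg*Trp53* lines spanned 5.89-fold. The fitted difference was 0.14 (SE 1.88, 95% interval -4.36 to 4.64, adjusted p = 0.984, limma). It was negative, at -1.75, without *Myc*; sg*Kmt2c* replicate 1 and positive, at 2.18, without *Myc*; sg*Kmt2c* replicate 2.

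*Krt7*, the type II keratin of bile ducts, had 22.8, 0.817 and 94.7 RPKM in the *Myc*; sg*Trp53* lines, against 990, 0.786 and 5.76 RPKM in the *Myc*; sg*Kmt2c* lines. It was at or below its floor of 3 reads in replicate 2 of each genotype, where 3 and 2 reads were counted, against 3219 reads in *Myc*; sg*Kmt2c* replicate 1. Lines of a genotype differed by 116-fold (*Myc*; sg*Trp53*) and by 1259-fold (*Myc*; sg*Kmt2c*), the latter against a value of 2 reads. The fitted difference was 0.51 (SE 2.52, 95% interval -5.51 to 6.53, adjusted p = 0.952, limma), and it was -2.21 without *Myc*; sg*Kmt2c* replicate 1 and -1.06 without *Myc*; sg*Trp53* replicate 2.

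*Krt20* was also highest in *Myc*; sg*Kmt2c* replicate 1, at a lower level, with 13.4, 0.0975 and 3.62 RPKM in the *Myc*; sg*Trp53* lines, against 53.3, 0 and 4.73 RPKM in the *Myc*; sg*Kmt2c* lines. Replicate 2 of each genotype had 1 and 0 reads on it, and a count of 0 allowed up to 0.422 RPKM in the latter. The fitted difference was 0.70 (SE 1.55, adjusted p = 0.897, limma) and -0.80 without *Myc*; sg*Kmt2c* replicate 1. *Krt80* was the most even member, with 18.8, 2.22 and 13.3 RPKM in the *Myc*; sg*Trp53* lines, against 13.4, 6.88 and 5.80 RPKM in the *Myc*; sg*Kmt2c* lines. It was the only tested member whose highest level was not in *Myc*; sg*Kmt2c* replicate 1. Its fitted difference was -0.08 (SE 0.70, adjusted p = 0.975, limma) and -0.40 without *Myc*; sg*Kmt2c* replicate 1.

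*Krt14*, *Krt23* and *Krt5* lay below the filter of 1 RPKM in at least 3 lines and were each seen in single lines. *Krt14* had 8.34 RPKM (40 reads) in *Myc*; sg*Kmt2c* replicate 3, 1.68 RPKM (13 reads) in *Myc*; sg*Trp53* replicate 3 and at most 3 reads in each of the other 4 lines. *Krt23* had 6.92 RPKM (51 reads) and *Krt5* 2.91 RPKM (30 reads) in *Myc*; sg*Kmt2c* replicate 1, and both had 0 or 1 read in every other line. A count of 0 allowed up to 3 reads, which in the lines without a read was 0.199 to 0.320 RPKM for *Krt5*, 0.567 RPKM for *Krt14* and 0.278 to 0.520 RPKM for *Krt23*. The line with the most *Krt14* had no read on *Krt5*, its partner in basal cells, and the line with the most *Krt5* had none on *Krt14*. Exact two-sided permutation tests of the genotype, which cannot go below p = 0.10 with 3 lines against 3, gave p = 0.90 for *Krt14*, p = 1 for *Krt23* and p = 0.40 for *Krt5*.

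In the fit across all 11617 genes with at least 1 RPKM in at least 3 lines, 0 of the 6 tested members passed an adjusted p of 0.05, and 0 had an unadjusted p under 0.05, by limma on log2(RPKM + 1) and by limma voom on the recovered reads alike. Of all genes tested, 15 (0.129%) were called, 6 higher and 9 lower in the *Myc*; sg*Kmt2c* lines. The genotypes did not overlap in 0 of the 9 members and in 16.2% of all genes tested. Of the 6 tested members 5 had a positive and 1 a negative fitted difference, with a median of 0.60 against -0.09 over all genes tested, and 4 of the 6 changed sign when single lines were left out. The median of the 6 was -0.60 without *Myc*; sg*Kmt2c* replicate 1, -0.48 without *Myc*; sg*Trp53* replicate 2 and 1.10 to 2.27 without any other line. The 95% interval was narrowest for *Krt80*, from -1.76 to 1.60 on the log2 scale, and widest for *Krt7*, from -5.51 to 6.53. Differences within these intervals, which are not adjusted for the number of genes, are compatible with the values of these lines.

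**Figure D2:**
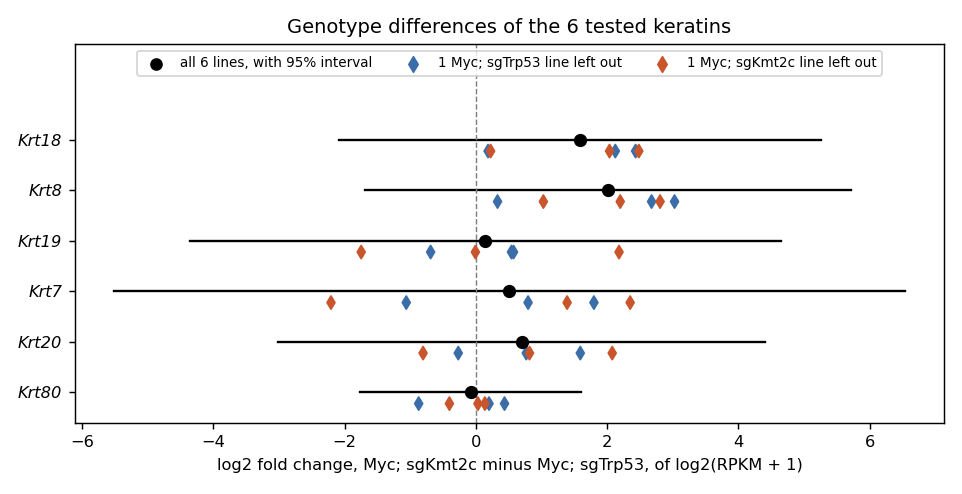
Difference between the genotypes in log2(RPKM + 1), *Myc*; sg*Kmt2c* minus *Myc*; sg*Trp53*, for the 6 tested keratins: black points are the fit of all 6 lines with its 95% interval, and diamonds are fits with a single line left out, colored by the genotype of that line. Every interval includes 0, and the diamonds of *Krt19*, *Krt7*, *Krt20* and *Krt80* lie on both sides of it.

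The spread between lines of a genotype was compared with that of all genes tested, a comparison made after the values had been seen. The residual SD of log2(RPKM + 1) was 3.97 for *Krt7*, the 3rd largest of 11617 genes, 2.96 for *Krt19* (20th), 2.44 for *Krt8* (71st), 2.43 for *Krt20* (72nd) and 2.41 for *Krt18* (74th). The median gene had 0.37, and 99% of genes had at most 2.20. *Krt80* had a residual SD of 1.07, at the 91.3rd percentile. Without *Myc*; sg*Kmt2c* replicate 1 the residual SD was 2.50 for *Krt7* (22nd largest), 2.45 for *Krt8* (27th), 2.14 for *Krt19* (55th), 2.02 for *Krt18* (78th), 1.84 for *Krt20* (109th) and 1.14 for *Krt80* (523rd), and 99% of genes had at most 1.80. Of the other keratin genes only *Krt10* could be tested, and its residual SD was 0.17, below that of most genes. It lay at only 0.782 to 1.72 RPKM, where the pseudocount of 1 narrows differences between lines.

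**Figure D3:**
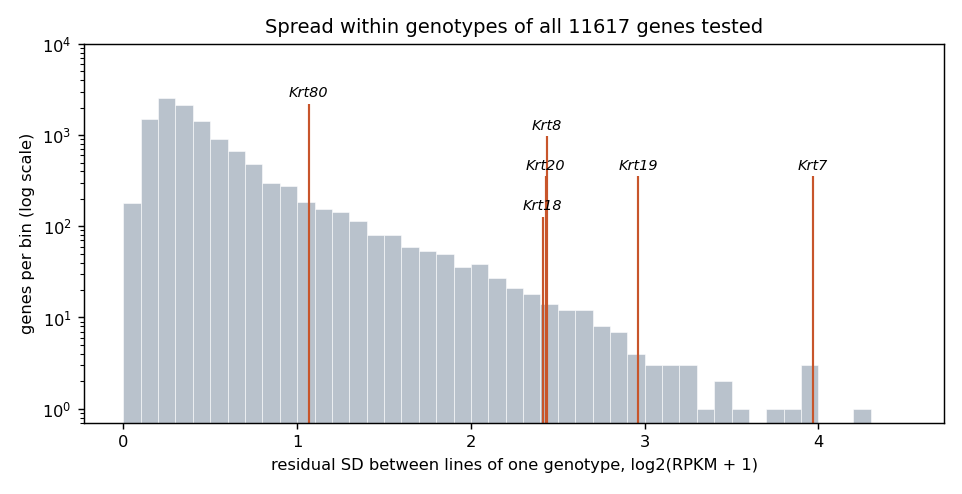
Number of genes (log axis) by the residual SD of log2(RPKM + 1) between lines of a genotype, over the 11617 genes tested, with the 6 tested keratins marked by vertical lines whose heights carry no value. *Krt18*, *Krt20* and *Krt8* sit together at 2.41 to 2.44, *Krt19* at 2.96 and *Krt7* at 3.97, all beyond 99% of genes, which lie at or below 2.20.

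The makeup of the keratin pool differed between lines as well as its size. Summed over the 9 members, the level ran from 65.2 RPKM in *Myc*; sg*Trp53* replicate 2 to 6660 RPKM in *Myc*; sg*Kmt2c* replicate 1, with 1042 and 824 RPKM in the other *Myc*; sg*Trp53* lines, against 245 and 685 RPKM in the other *Myc*; sg*Kmt2c* lines. *Krt7*, *Krt8*, *Krt18* and *Krt19* together made up 95.5% to 98.9% of the sum in every line. *Krt8* and *Krt18* alone made up 36.0% in *Myc*; sg*Trp53* replicate 2, where *Krt19* led with 58.2%, and 93.7% in *Myc*; sg*Kmt2c* replicate 2, where *Krt19* was at 2.88%. In the remaining lines the pair held 56.0% to 74.2%.

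**Figure D4:**
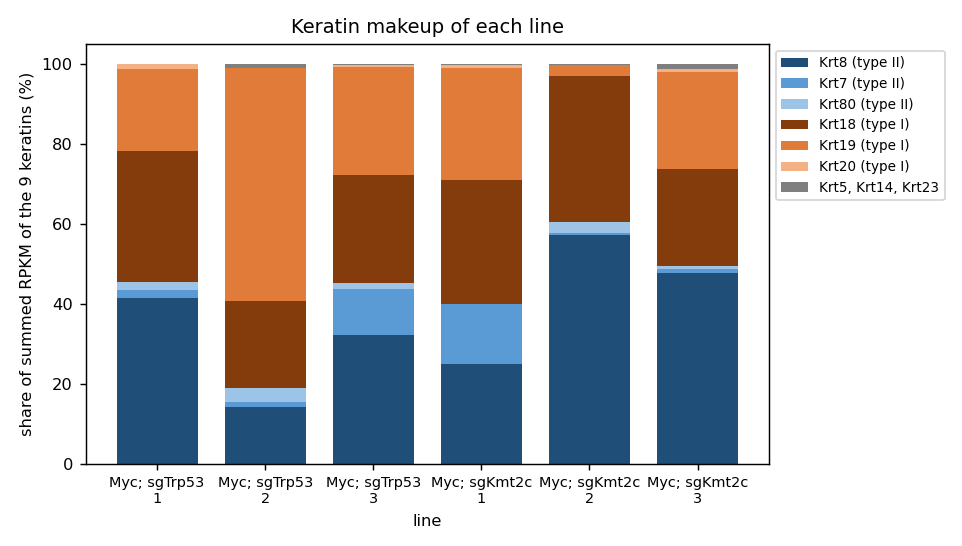
Share of the summed RPKM of the 9 keratin genes held by each gene in each line, in percent, with type II genes in blue, type I genes in brown and orange, and *Krt5*, *Krt14* and *Krt23* joined in grey. *Krt19* takes 58.2% in *Myc*; sg*Trp53* replicate 2 and 2.88% in *Myc*; sg*Kmt2c* replicate 2, and *Krt7* is largest in *Myc*; sg*Kmt2c* replicate 1 at 14.9%.

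The partner chains were compared within lines, in RPKM. The ratio of type II to type I sums was 0.829, 0.233 and 0.825 in the *Myc*; sg*Trp53* lines and 0.669, 1.53 and 0.977 in the *Myc*; sg*Kmt2c* lines, a span of 6.57-fold while the sums themselves spanned 75.5-fold (type I) and 217-fold (type II). *Krt8* stood to *Krt18* at 1.26, 0.651 and 1.19 in the *Myc*; sg*Trp53* lines and at 0.805, 1.57 and 1.96 in the *Myc*; sg*Kmt2c* lines, a span of 3.01-fold. The ratio of *Krt19* to *Krt18*, both type I, spanned 33.7-fold, from 0.0790 in *Myc*; sg*Kmt2c* replicate 2 to 2.66 in *Myc*; sg*Trp53* replicate 2. That of *Krt7* to *Krt8*, both type II, spanned 106-fold, from 0.00560 in *Myc*; sg*Kmt2c* replicate 2 to 0.596 in *Myc*; sg*Kmt2c* replicate 1.

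Over the 6 lines, 4 pairs of a type II with a type I gene were correlated on the scale of log2(RPKM + 1), with exact permutation tests and p-values adjusted over the 4 pairs. *Krt8* and *Krt18* had the highest Pearson's r of the 4 pairs, r = 0.97 (exact p = 0.00278, adjusted p = 0.0111) and Spearman's rho = 0.94 (exact p = 0.0167, adjusted p = 0.0333), and r was 0.92 without the 2 lines farthest from the median of *Krt8*. *Krt7* and *Krt19*, the pair of bile ducts, had r = 0.91 (exact p = 0.00694, adjusted p = 0.0139) and rho = 1 (exact p = 0.00278, adjusted p = 0.0111), with r = 0.85 without the 2 lines farthest from the median. The order of the lowest 2 lines in *Krt7*, on which that rho rests in part, is one of 2 against 3 reads and cannot be told apart from the reverse. *Krt7* and *Krt18* had r = 0.89 (exact p = 0.0167, adjusted p = 0.0222; rho = 0.89, exact p = 0.0333, adjusted p = 0.0444) and r = 0.82 without the farthest 2 lines. *Krt8* and *Krt19* did not pass (r = 0.70, exact p = 0.124, adjusted p = 0.124; rho = 0.77, exact p = 0.103), and r was 0.90 without *Myc*; sg*Trp53* replicate 2 and *Myc*; sg*Kmt2c* replicate 1. Within a genotype r lay between 0.89 and 1.00 for the 4 pairs, but 3 lines are too few for a test.

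**Figure D5:**
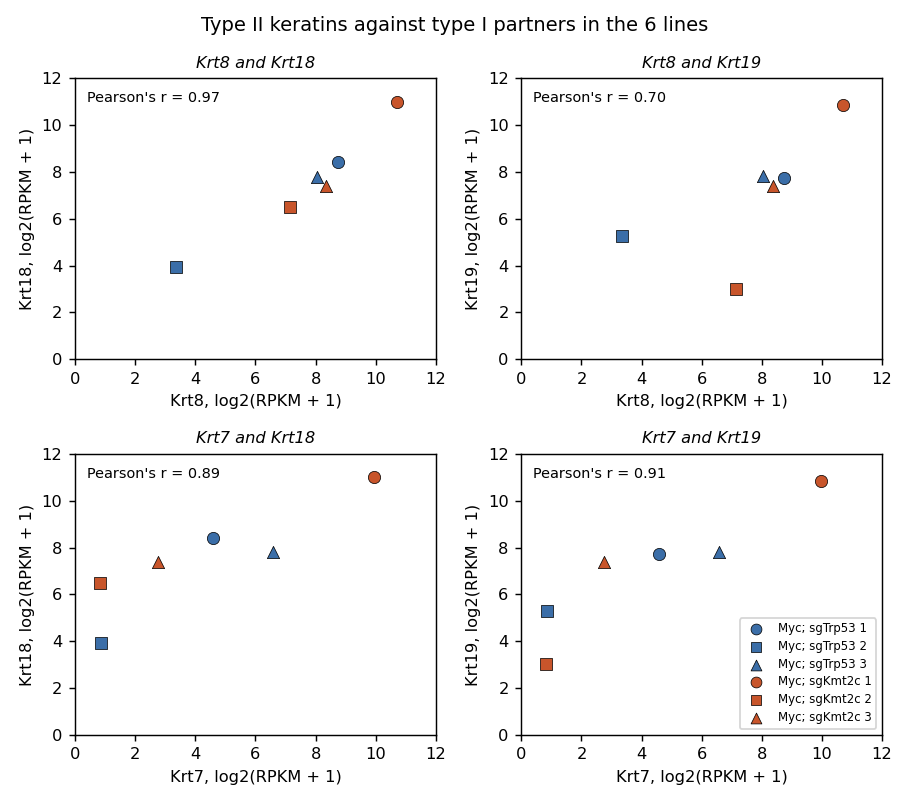
Type II keratins (x axis) against type I partners (y axis) in the 6 lines, both as log2(RPKM + 1), in blue for *Myc*; sg*Trp53* and orange for *Myc*; sg*Kmt2c*, with Pearson's r printed in each panel. *Krt8* and *Krt18* lie close to a line (r = 0.97), whereas *Krt8* and *Krt19* (r = 0.70) are farther from one, *Myc*; sg*Kmt2c* replicate 2 (orange square) being the lowest line in *Krt19* and only the 2nd lowest in *Krt8*.

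Genes outside the keratin family whose log2(RPKM + 1) ran most like that of a member over the 6 lines are named as a description, since 3 of 11617 genes picked for each member are close to it by selection. For *Krt8* these were *Ccdc68* (r = 1.000), *Ezr* (r = 0.996), which encodes ezrin, a linker of the cell membrane to actin, and *Pdzd11* (r = 0.994). *Ezr* had 226, 51.1 and 177 RPKM in the *Myc*; sg*Trp53* lines, against 373, 123 and 195 RPKM in the *Myc*; sg*Kmt2c* lines. *Krt18* ran with *Nrg1*, a growth factor that binds ERBB receptors (r = 0.995), *Mospd2* (r = 0.994) and *Mboat1* (r = 0.992). *Krt7* ran with *Car2*, a carbonic anhydrase (r = 0.995), *A130010J15Rik* (r = 0.994) and *Galnt3*, an enzyme that starts O-linked glycans (r = 0.992). *Car2* had 5.02, 0 and 20.4 RPKM in the *Myc*; sg*Trp53* lines, against 69.4, 0.308 and 2.12 RPKM in the *Myc*; sg*Kmt2c* lines. *Krt19* ran with *Ralgapa2*, *Tnfrsf21* and *Tmem141* (r = 0.995, 0.994 and 0.994).

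Of the 20 other keratin genes in the table, 16 stayed under 1 RPKM in all 6 lines, and 3 of these had no read at all. *Krt17*, a keratin of wounded and hyperproliferative epidermis, had 4.55, 0.848 and 12.0 RPKM in the *Myc*; sg*Trp53* lines, against 0 (allowing up to 0.410), 0.175 and 0.452 RPKM in the *Myc*; sg*Kmt2c* lines. The groups did not overlap, with 43, 7 and 128 reads against 0, 1 and 3 (exact permutation of lines, two-sided p = 0.10, the lower limit with 3 against 3). *Krt17* was below the filter, and without a filter its log2 fold change was -2.09 (SE 0.70, adjusted p = 0.591, limma). *Krt16*, of the same wound response, ran from 0 (allowing up to 0.407) to 1.73 RPKM, *Krt79* from 0.0896 to 1.82 RPKM, and *Krt10*, of the upper layers of epidermis, from 0.782 to 1.72 RPKM (adjusted p = 0.722, limma). *Krt14*, *Krt16* and *Krt17* have similar sequences, so reads could have been split between them or dropped.

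Linkers tie keratin filaments to desmosomes and to other filaments, and 13 of the 14 listed genes were in the table and 10 could be tested. None was called by limma. An unadjusted p under 0.05 was reached by 4 of the 10 and by 8.58% of all genes tested (limma), with positive fitted differences for *Plec* and *Perp* and negative ones for *Pkp4* and *Dsc2*. The list had 4 higher and 6 lower in the *Myc*; sg*Kmt2c* lines and a median log2 fold change of -0.16 against -0.09 over all genes tested, and the list's median ran from -0.36 to 0.84 with a line left out. *Perp*, a desmosome protein known as a p53 target, had 42.9, 67.8 and 21.8 RPKM in the *Myc*; sg*Trp53* lines, against 151, 225 and 85.6 RPKM in the *Myc*; sg*Kmt2c* lines. Its groups did not overlap and its log2 fold change was 1.81 (SE 0.50, adjusted p = 0.422, limma). *Jup*, which encodes plakoglobin of the desmosome plaque, had 39.0, 11.1 and 60.5 against 116, 52.5 and 59.8 RPKM (log2 fold change 1.23, SE 0.63, adjusted p = 0.631, limma, and 0.55 without *Myc*; sg*Trp53* replicate 2), lowest in the *Myc*; sg*Trp53* line that was lowest in *Krt8* and highest in the line that was highest in it.

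The other intermediate filament genes were present beside the keratins. None of the 5 tested of 10 was called by limma, and 0 had an unadjusted p under 0.05, with a median log2 fold change of -0.25 (-0.56 to 0.026 with a line left out). *Vim*, the filament gene of mesenchymal and cultured cells, was between 2116 and 4806 RPKM in all 6 lines, above the summed keratins in every line but *Myc*; sg*Kmt2c* replicate 1. *Nes*, a filament gene of progenitor and stellate cells, had 478, 121 and 603 RPKM in the *Myc*; sg*Trp53* lines, against 1.46, 274 and 189 RPKM in the *Myc*; sg*Kmt2c* lines (log2 fold change -2.70, SE 1.79, adjusted p = 0.702, limma). Without *Myc*; sg*Kmt2c* replicate 1 its log2 fold change was -0.53. The line with the least *Nes* was the one with the most *Krt8*, *Krt18*, *Krt19* and *Krt7*. *Lmnb1*, which encodes the nuclear lamin B1, had 95.6, 100 and 99.1 against 21.3, 44.7 and 101 RPKM (log2 fold change -1.08, SE 0.51, adjusted p = 0.609, limma), and its log2 fold change was -0.54 without *Myc*; sg*Kmt2c* replicate 1 and -1.63 without *Myc*; sg*Kmt2c* replicate 3.

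Among 13 genes for chaperones, kinases and turnover of keratins, all 13 were tested and none was called by limma, with 0 at an unadjusted p under 0.05, 5 higher, 8 lower and a median log2 fold change of -0.03 (-0.11 to 0.019 with a line left out). *Mapk14*, the p38 kinase that phosphorylates keratin 8, had 91.8, 80.5 and 97.1 RPKM in the *Myc*; sg*Trp53* lines, against 41.9, 61.4 and 79.9 RPKM in the *Myc*; sg*Kmt2c* lines (log2 fold change -0.59, SE 0.26, adjusted p = 0.597, limma, and -0.35 without *Myc*; sg*Kmt2c* replicate 1). *Tgm2*, the transglutaminase that cross-links keratins, had 56.2, 8.73 and 80.4 against 109, 6.26 and 10.9 RPKM. Its 3 highest lines were those of *Krt7*, and replicate 2 of each genotype was lowest, as for *Krt7*.

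Of 20 listed transcription factors of epithelial keratin genes 13 were tested and none was called by limma, with 0 at an unadjusted p under 0.05, 7 higher, 6 lower and a median log2 fold change of 0.05 (-0.37 to 0.32 with a line left out). *Klf4* had 80.4, 43.1 and 35.1 RPKM in the *Myc*; sg*Trp53* lines, against 48.4, 155 and 238 RPKM in the *Myc*; sg*Kmt2c* lines (log2 fold change 1.28, SE 0.61, adjusted p = 0.611, limma), and its log2 fold change was 1.93 without *Myc*; sg*Kmt2c* replicate 1 and 0.80 without *Myc*; sg*Kmt2c* replicate 3. *Klf4* was thus not high in the line with the most keratin, *Myc*; sg*Kmt2c* replicate 1. Of the 13 tested factors, *Klf6* (103 RPKM), *Klf5* (79.3 RPKM), *Fosl1* (69.0 RPKM), *Tead4* (33.2 RPKM) and *Elf3* (10.7 RPKM) were highest in that line. *Foxa2*, not tested, was also highest in it (23.6 RPKM). The only tested factors lowest in it were *Foxa1* (0.133 RPKM) and *Jun* (9.05 RPKM). *Ehf*, an epithelial ETS factor, had 5.98, 0.0421 and 2.14 RPKM against 0.427, 0.0607 and 1.15 RPKM (log2 fold change -0.94, SE 0.71, adjusted p = 0.719, limma), and its log2 fold change was -0.29 without *Myc*; sg*Trp53* replicate 1 and -1.66 without *Myc*; sg*Trp53* replicate 2.

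Markers of the cell types that the lines could hold were summed in RPKM and set beside the keratins. Their part in the keratin levels was not tested, and no marker in any of the 8 lists was called by limma or by voom. An unadjusted p under 0.05 (limma) was reached by 5 of the 27 markers tested and by 8.58% of all genes tested. The fitted differences were positive for *Esrp2* and *Itgb4* and negative for *Upk3b*, *Csf1r* and *Lyz2*. Hepatocyte markers (10 genes) summed to 29.8 to 76.8 RPKM in the *Myc*; sg*Trp53* lines and to 2.74 to 5688 RPKM in the *Myc*; sg*Kmt2c* lines, with a median log2 fold change of 0.60 over the 5 tested (-0.00079 without *Myc*; sg*Kmt2c* replicate 1 and 0.78 to 2.15 without any other line). The defining hepatocyte gene *Alb* was at most 4.36 RPKM in any line, whereas *Apob* had 12.9, 11.8 and 48.8 against 4385, 0.243 and 129 RPKM and *Hnf4a* 24.7, 3.49 and 15.8 against 1186, 0.629 and 170 RPKM. *Myc*; sg*Kmt2c* replicate 1 was the highest line in both, and replicate 2 of that genotype, with the lowest *Krt19*, the lowest.

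Epithelial markers (10 genes, keratins left out) summed to 24.6 to 107 RPKM in the *Myc*; sg*Trp53* lines and 13.7 to 513 RPKM in the *Myc*; sg*Kmt2c* lines (median log2 fold change 1.42 over the 5 tested, -0.27 without *Myc*; sg*Kmt2c* replicate 1 and 0.82 to 1.99 without any other line), with the highest sum in *Myc*; sg*Kmt2c* replicate 1. *Epcam* had 0.964, 0.369 and 2.42 RPKM against 27.0, 0.399 and 6.88 RPKM, and *Cdh1*, the gene of E-cadherin, was at 191 RPKM in that line and at 0.306 to 9.86 RPKM in the others. Of the 5 tested, 4 were higher and 1 lower in the *Myc*; sg*Kmt2c* lines. The lower one was *Cldn3*, with 83.9, 20.3 and 13.9 against 227, 0 and 3.72 RPKM (log2 fold change -1.55, SE 1.91, adjusted p = 0.806, limma). *Cldn7*, not tested, had 1.44, 0.412 and 2.07 RPKM against no read in any *Myc*; sg*Kmt2c* line. *Esrp2*, a splicing factor of epithelial cells, had 13.3, 1.81 and 8.33 RPKM against 25.7, 12.4 and 26.5 RPKM (log2 fold change 1.57, SE 0.63, adjusted p = 0.576, limma, and 0.89 without *Myc*; sg*Trp53* replicate 2). The 10 biliary and progenitor markers summed to 73.1 to 811 RPKM and to 108 to 669 RPKM. The sum was lowest in *Myc*; sg*Trp53* replicate 2 and next lowest in *Myc*; sg*Kmt2c* replicate 2, the lines with the least *Krt19* and *Krt7*, and was mostly *Spp1*, the gene of osteopontin, at 46.8 and 76.1 RPKM in these lines and 236 to 682 RPKM in the others. *Prom1* had 5.54, 0.569 and 3.55 RPKM against 0.428, 0 and 3.01 RPKM.

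Fibroblast and stellate markers (10 genes) summed to 18.7 to 996 RPKM in the *Myc*; sg*Trp53* lines and to 0.282 to 156 RPKM in the *Myc*; sg*Kmt2c* lines, with a median log2 fold change of -2.04 over the 5 tested (-3.06 to -0.96 with a line left out). The sum of 996 RPKM was in *Myc*; sg*Trp53* replicate 2 and was mostly *Col3a1*, a fibrillar collagen gene, at 814 RPKM. Without *Col3a1* the sum was 182 RPKM in that line and 270.0 RPKM in *Myc*; sg*Trp53* replicate 3. With or without it the sum was lowest in *Myc*; sg*Kmt2c* replicate 1, where *Krt8* and *Krt18* were highest and where 8 of the 10 markers had no read. *Col1a2* had 2.70, 114 and 75.3 RPKM against 0, 8.94 and 4.40 RPKM, and *Col1a1* 0.470, 23.2 and 39.2 against 0.215, 2.01 and 1.74 RPKM. Basal and squamous markers summed to 5.13 to 58.4 and 10.6 to 140 RPKM. In this list *Dsg3* and *Dsc3*, the desmosomal cadherins of basal cells, had at most 0.0353 and 0.0309 RPKM, *Sprr1a* had 1.35 to 52.2 RPKM and *Itgb4* had 0.300, 0.125 and 0.362 against 86.8, 4.51 and 6.22 RPKM (log2 fold change 3.59, SE 1.01, adjusted p = 0.424, limma, and 2.33 without *Myc*; sg*Kmt2c* replicate 1). Mesothelial markers summed to 7.72 to 34.0 and 3.54 to 93.5 RPKM, mostly *Msln* at 93.5 RPKM in *Myc*; sg*Kmt2c* replicate 1, while *Upk3b* had 1.06 to 5.59 against 0.0601 to 0.199 RPKM. Immune markers summed to 21.7 to 58.2 and 5.51 to 15.2 RPKM. *Lyz2* had 29.0, 17.1 and 45.3 against 0, 0.214 and 12.4 RPKM, and *Csf1r* had 1.70 to 10.0 against 0 to 0.967 RPKM. *Cd68*, the remaining tested marker, had 7.60, 2.60 and 4.01 against 5.35, 5.29 and 1.71 RPKM (log2 fold change -0.17, SE 0.48, adjusted p = 0.919, limma). *Cd68* made up most of the sum in *Myc*; sg*Kmt2c* replicates 1 and 2, and *Lyz2* most of it in the other lines. The defining leukocyte gene *Ptprc* was at most 0.0655 RPKM, and *Cd3e* and *Cd79a* had no read in any line. The 7 endothelial markers summed to at most 1.27 RPKM in any line.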

How the data were processed

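RNA was sequenced from 6 lines, 3 per genotype, and each sample was put in its genotype by its label. Per the labels' processing notes, the authors used Trimmomatic, STAR, HTSeq and the build GRCm38, and the values they deposited are RPKM (FPKM in the study's methods). Versions of these tools and the use of strand in counting are not given in the sources used here, so overlapping genes are uncertain. The libraries shared the same lanes of a flow cell. The deposited table has 21065 rows, 209 without values, and 6 further sample columns that were not used. A table of the authors' own DESeq2 comparison (mean, log2 fold change, error, statistic and p-values) was not used.

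RPKM times transcript length came in whole reads for 100% of values above 0 (tolerance 0.01 read), which gave reads per gene. A read on a transcript of 2 kb was worth 0.0726 to 0.136 RPKM. A count of 0 allows up to 3 reads, a floor that is printed for keratin genes and covers counting error only. Replicates of a genotype differed by a chi-square per gene of 28.5 or more, so none was a copy of another. P-values measure the spread between these lines.

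The test was limma 3.58.1 (R 4.3.3, moderated variances with a trend on the mean level) on log2(RPKM + 1) for the 11617 genes with at least 1 RPKM in at least 3 of 6 libraries, with genotype as the only term, Benjamini-Hochberg adjustment over all of them and a threshold of 0.05. The pseudocount of 1 understates changes of low genes. The paper names a count test, but the deposited unit is RPKM. Partner pairs and single values were tested by exact permutation. The test was first run on simulated reads with known changes. Alternatives were a pseudocount of 0.1, no filter, median-of-ratios scaling, no trend, a replicate block, voom on recovered reads, the mean of *Myc*; sg*Kmt2c* replicates 2 and 3 as 1 line, and each line left out.

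The members and gene lists were chosen with earlier results of these data known, as were the motifs searched in the promoters. Named genes are the 9 members; other keratin genes reaching 1 RPKM in a line; of each list, every gene past the threshold and the 2 with the largest fold change among those tested; the 3 most similar genes of 4 members; and *Trp53* and *Kmt2c*. *Vim*, *Alb*, *Col3a1*, *Spp1*, *Plec*, *Pkp4*, *Dsc2*, *Cdh1*, *Cldn3*, *Cldn7*, *Klf5*, *Klf6*, *Fosl1*, *Tead4*, *Elf3*, *Foxa1*, *Foxa2*, *Jun*, *Dsg3*, *Dsc3*, *Cd68*, *Ptprc*, *Cd3e* and *Cd79a* fall outside this rule and were chosen after their values were seen.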

Additional observations from a re-analysis of the deposited data

How the results depend on the processing

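The count of members past the threshold was 0 under all 13 alternatives, and of 78 refitted differences of tested members 1 had an unadjusted p under 0.05 (limma; *Krt8* with the replicate block, log2 fold change 2.01, unadjusted p = 0.0270, adjusted p = 0.461). Their adjusted p-values ran from 0.461 to 0.999 (limma). The count over all genes tested was less stable: 15 genes passed, against 20 without a trend, 14 with median-of-ratios scaling, 6 with a pseudocount of 0.1, 5 without a filter, 4 by voom on recovered reads, 0 with the replicate block, 0 with the mean of *Myc*; sg*Kmt2c* replicates 2 and 3 taken as 1 line, and 0 to 8 with a line left out, where 8 came without *Myc*; sg*Kmt2c* replicate 1 and 0 without any other line. Unadjusted p-values under 0.05 numbered 997 in the reported fit, 1085 with the block, 1031 with the lines joined and 563 to 1477 with a line left out. The cause was not tested.

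With a line left out, the log2 fold change ran from -2.21 to 2.35 for *Krt7*, from -1.75 to 2.18 for *Krt19*, from -0.80 to 2.08 for *Krt20* and from -0.87 to 0.44 for *Krt80*. Among the other genes that the naming rule picked and that were refitted, it ran across 0 for *Kmt2c* (-0.54 to 0.11), *Tgm2* (-1.94 to 0.017), *Apob* (-0.70 to 5.19), *Msln* (-0.99 to 1.28) and *Sprr1a* (-1.16 to 1.13). With the mean of *Myc*; sg*Kmt2c* replicates 2 and 3 taken as 1 line it was 0.086 for *Krt80* and 0.69 for *Sprr1a*. The adjusted p of *Trp53* was 0.0771 with the block and 0.104 with the lines joined, and 0.0766 to 0.108 with any line left out but *Myc*; sg*Kmt2c* replicate 1, without which it was 0.0118 (limma). The 4 partner correlations kept their sign and their side of the threshold with a pseudocount of 0.1.

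Whether the replicate numbers of the genotypes pair the lines was not settled. The correlation of deviations from the genotype means was 0.19, 0.40 and 0.03 for lines with the same number and -0.28 to 0.15 for lines with different numbers. The line with the same number was the best match for *Myc*; sg*Kmt2c* replicates 1 and 2, whereas replicate 3 correlated best with *Myc*; sg*Trp53* replicate 1 (0.05). The block moved the count of calls from 15 to 0 and that of members not at all. Depth limited *Krt5*, *Krt14* and *Krt23*, which rest on at most 51 reads in a line.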
